A study of Mus musculus with 6 samples.

Results

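The genes described here are the 69 replication-dependent histone genes of the Hist1, Hist2, Hist3 and Hist4 clusters in regulatory T cells (Treg cells) with and without extra miR-27. They are all gene symbols of the deposited expression table that begin with Hist1h, Hist2h, Hist3h or Hist4h, of 24453 symbols in all. Of each symbol the transcript row with the highest mean level over the 6 libraries was used. The cells were CD4+Foxp3+ Treg cells, sorted from the healthy female mice of strain C57BL/6, and their total RNA was sequenced. The 3 control libraries are labelled WT, with a genotype that reads WT Tg, and the other 3 carry the genotype miR-27 Tg. The series title gives the mice as Foxp3cre het miR-27Tg, and its text describes miR-27a overexpressed in Treg cells alone. Cre in such mice is driven by the regulatory sequence of Foxp3, which is active in Treg cells. The sources used here do not give what the wording WT Tg denotes, how old the mice were, or whether each library is a mouse of its own. A p-value therefore reflects the spread among libraries alone, which could be technical. Levels are RPKM, reads per kilobase of transcript per 10000000 counted reads, and depth was 37700000 to 42100000 counted reads per WT library and 34400000 to 38100000 per miR-27 Tg library. Mir27a, the hairpin of miR-27a, was at 29.3 ± 7.88 RPKM in WT against 8089 ± 754 in miR-27 Tg (SD, n = 3), which fits the labels. Foxp3, the defining gene of the sorted cells, was at 764 ± 89.9 RPKM in WT against 836 ± 104 in miR-27 Tg (SD, n = 3).

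Replication-dependent histone genes encode the core histones H2A, H2B, H3 and H4, which form the nucleosome, and the linker histone H1, which binds the DNA between nucleosomes. They lie in clusters, carry few or no introns, and are transcribed mainly in S phase, when new DNA is packed. Most of their messenger RNAs end just after a short stem-loop in place of a poly(A) tail. The stem-loop is bound by the protein SLBP, and the U7 small nuclear ribonucleoprotein guides the cut. Replacement variants such as H3f3b and H2afz are made throughout the cell cycle from polyadenylated messages. Library kits that enrich for poly(A) RNA capture histone messages with a stem-loop end poorly; the sources used here do not say whether the TruSeq libraries included such a step.

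The stem-loop is the feature that sets these messages apart, so its forms are shown first, as DNA from 5′ to 3′ with the 4 bases of the loop in capitals and the 6 bases of each stem arm in lower case. The pattern searched in the GENCODE transcript models of mouse build GRCm38 was 16 bases in all. It was a perfect stem that opens with GG and closes with CC, around a loop with at least 2 T. It was found in 46 of the 69 genes, in 8 forms, and in 464 of all 21877 coding genes (2.12%).
Hist3h2a, Hist3h2ba, Hist1h1c and 23 other genes of types H1, H2A, H2B and H3: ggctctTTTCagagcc
Hist4h4, Hist1h4d and 5 other genes, all of type H4: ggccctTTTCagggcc
Hist1h3e, Hist1h3c and 4 other genes of types H1, H2B and H3: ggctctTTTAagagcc
Hist1h4i and Hist2h4: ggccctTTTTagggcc
Hist1h4b and Hist1h4j: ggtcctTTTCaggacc
Hist2h2ac: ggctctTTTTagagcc
The remaining 2 forms belong to Hist1h4a and Hist1h3g, which were barely detected. In 41 of the 46 genes the RefSeq transcript used for counting stopped 4 to 8 bases after the stem-loop, with a median of 5. The values of those genes therefore count reads of the body of the message up to the stem-loop, and leave out any longer 3′ end. No match was found in the models of the other 23 genes, Hist2h2be, Hist1h2bc, Hist2h2bb and Hist1h1a among them, which says only that these letters are not in those models.

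Histone messages were low in these libraries. The median over the 69 genes was 0.903 RPKM, against 3.17 over all symbols. A mean of at least 1 RPKM, the level required for testing, was reached by 34 histone genes (49.3%), against 55.7% of all symbols. Among those tested, the histone genes had a median of 2.62 RPKM and all genes 64.1. Hist3h2a alone of the 34 lay above the latter value. A further 25 genes had some reads but stayed under the filter, and 10 were listed at 0 in every library. For those 10, a count of 0 allows up to 3 reads in a library, which is 0.337 to 2.40 RPKM depending on the transcript's length. They are Hist1h1t, Hist1h2aa and Hist1h2ba, which are known from the testis, with Hist1h2af, Hist1h2ah, Hist1h2bl, Hist1h2bn, Hist1h2bq, Hist1h2br and Hist1h4n. Just above the filter lay Hist1h3c at 1.04 RPKM and just below it Hist1h4a at 0.903.

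Few reads stand behind most of these values. All 69 genes together had 800, 811 and 818 reads in WT against 708, 662 and 749 in miR-27 Tg. These are raw counts, not scaled to depth, and depth was mostly higher in WT. Scaled to the depth of each library, the groups overlapped. The mean of the scaled reads in miR-27 Tg was then 0.971 times that in WT. A read on overlapping rows counts in each of them. The median gene had 11 reads over the 6 libraries, 33 genes had under 10, and 7 genes had 100 or more. Of the 34 genes tested, 26 had under 20 reads in every library. Hist3h2a alone held 27.1% of the summed RPKM of all 69 genes, the leading 3 held 54.3% and the leading 10 held 78.7%. Because the RNA came from pools of cells, fewer cells in S phase and less histone RNA per cell cannot be told apart in any of these values.

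**Figure D1:**
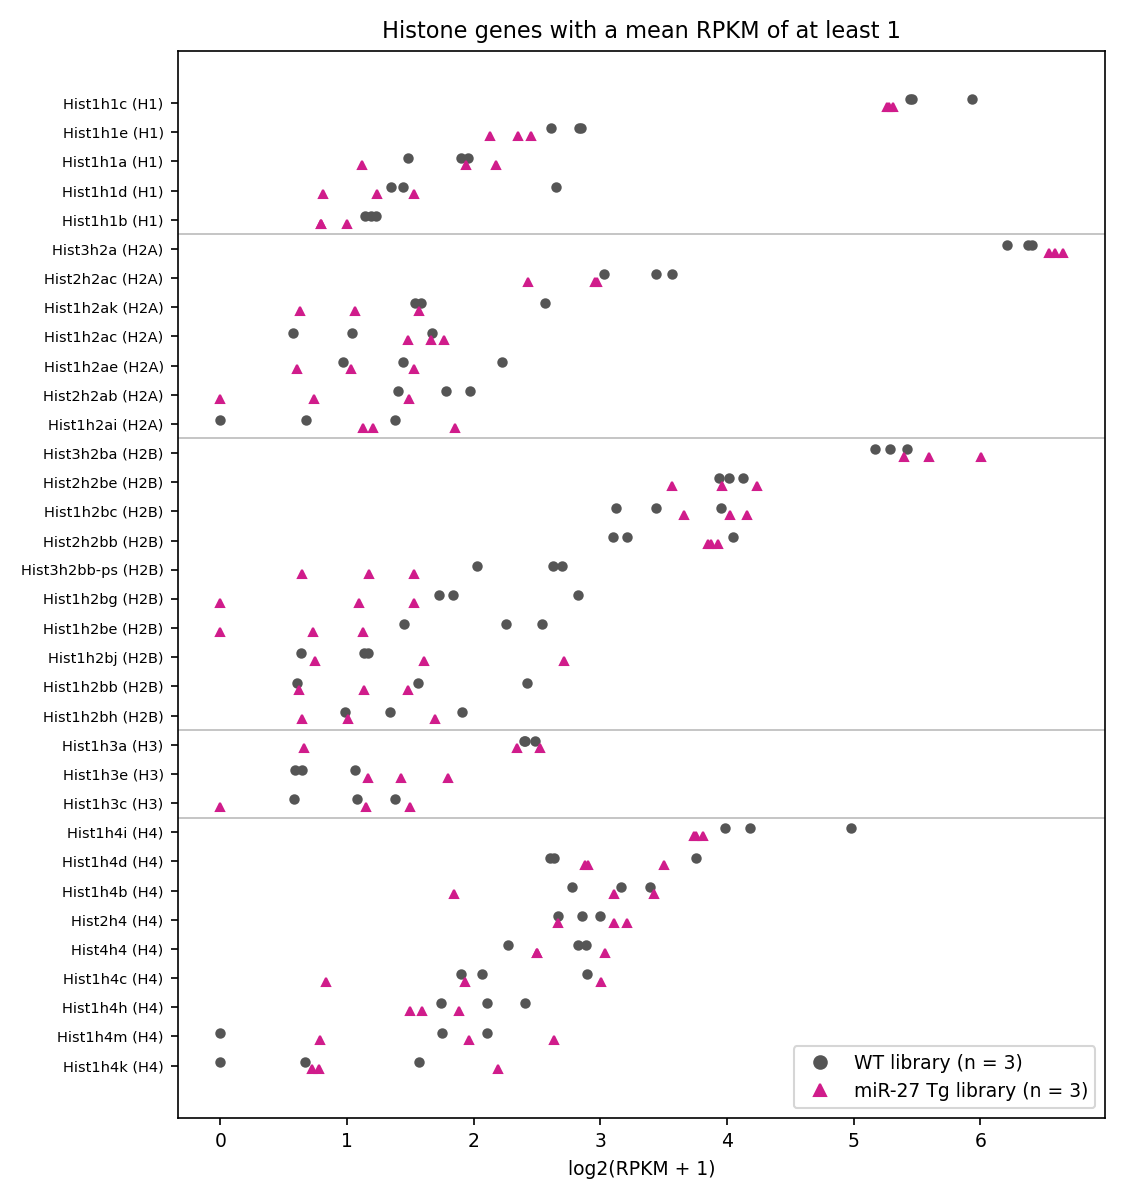
Level of the 34 histone genes with a mean of at least 1 RPKM, as log2(RPKM + 1) on the x axis, grouped by histone type; grey circles are the 3 WT libraries and magenta triangles the 3 miR-27 Tg libraries. Hist3h2a, Hist3h2ba and Hist1h1c stand above all other genes, and most genes sit below 10 RPKM with libraries of both groups interleaved.

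The main comparison asked whether histone messages differ in Treg cells that overexpress miR-27. In limma's moderated model on log2(RPKM + 1), with Benjamini-Hochberg adjustment over the 13621 genes tested, 0 of the 34 histone genes passed an adjusted p of 0.05, where 1.03% of all genes tested passed. At an unadjusted p under 0.05, 2 histone genes were higher in miR-27 Tg (4.59% of all genes tested) and 6 were lower (8.43% of all genes tested). In 2 genes all miR-27 Tg libraries lay above all WT libraries (6.84% of all genes tested) and in 8 all lay below (11.6% of all genes tested). The log2 fold change was above 0 in 13 histone genes and below 0 in 21, with a median of -0.31 against -0.013 over all genes tested. Its standard error was larger than usual, with a median of 0.34 against 0.14. Of the 34 genes, 7 passed the filter through 1 group alone, with a mean under 1 RPKM in the other: 4 with the lower mean in WT and 3 in miR-27 Tg. Such genes had to differ, so the counts above are no support for a difference. Without them 1 gene was higher and 4 were lower at an unadjusted p under 0.05, 1 and 6 did not overlap, and the median log2 fold change was -0.32. Among the 7 genes with a mean of 10 RPKM or more the median was 0.26, with 4 above 0. Among the 27 below that level it was -0.32, with 18 below 0.

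**Figure D2:**
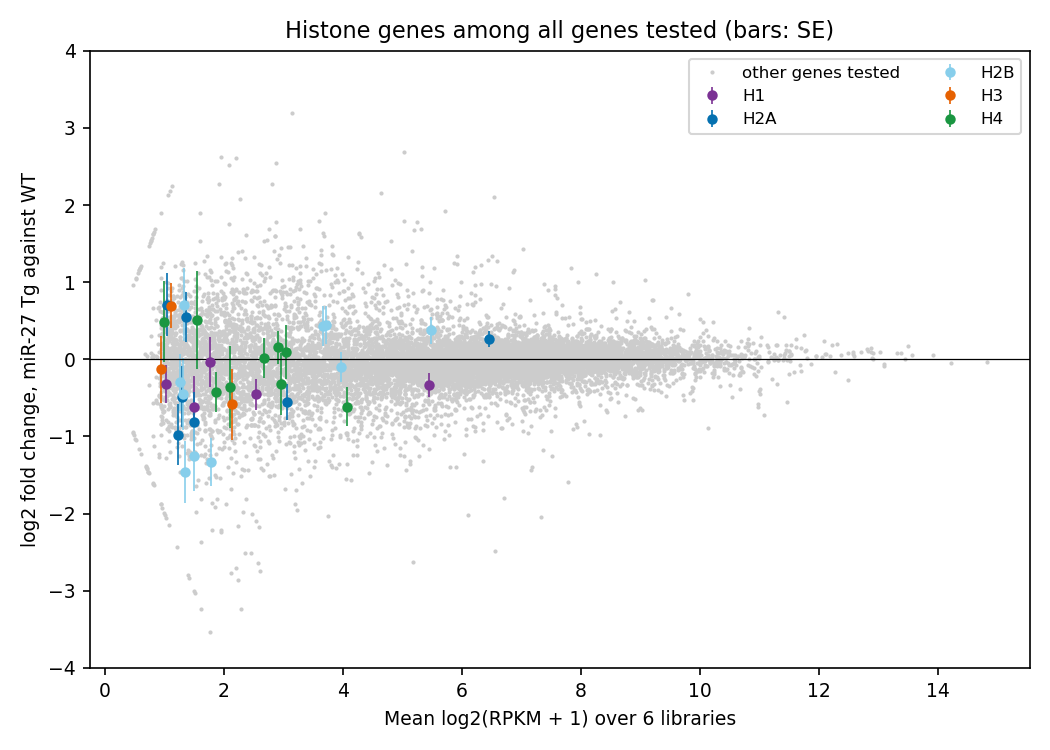
Fold change against level for the genes tested. The x axis is the mean of log2(RPKM + 1) over the 6 libraries and the y axis the log2 fold change of miR-27 Tg against WT; grey points are other genes, coloured points are histone genes by type with bars of 1 standard error, and 1 gene beyond the y axis limit of 4, Mir27a, is not drawn. Most histone genes sit at the low end of the x axis, where the grey points spread widest.

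The summed levels were compared between groups and between histone types, as counted. All 69 genes summed to 299, 324 and 352 RPKM in WT against 311, 294 and 358 in miR-27 Tg, which is 324.9 ± 26.3 against 321 ± 33.4 (SD, n = 3). These groups overlap throughout. H1 genes summed to 54.9, 58.1 and 70.2 RPKM in WT against 46.4, 44.2 and 49.2 in miR-27 Tg, so every miR-27 Tg library lay below every WT library. H2A genes summed to 101.5 ± 7.05 RPKM in WT against 110 ± 4.49 in miR-27 Tg, and H2B genes to 92.3 ± 3.22 and 103 ± 15.4. H4 genes summed to 59.7 ± 15.9 and 51.8 ± 10.5 RPKM. H3 genes were the lowest type, at 10.3 ± 0.586 and 9.62 ± 2.37 RPKM. Although the nucleosome holds H3 and H4 in equal number, H3 messages were counted at a far lower level than H4 messages in every library. A poly(A) step and the handling of reads in repeated sequence are not given. The contrast is therefore of counted levels, not of messages in the cells.

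By cluster, the 3 genes of Hist3 on chromosome 11 gave more summed RPKM than the 10 genes of Hist2 on chromosome 3. Hist3 summed to 118, 124 and 125 RPKM in WT against 134, 145 and 164 in miR-27 Tg, with no overlap between groups. Hist1 on chromosome 13, with 55 genes, summed to 151 ± 21.4 RPKM in WT against 125 ± 23.9 in miR-27 Tg, with overlap. Hist2 summed to 45.3 ± 5.79 and 43.7 ± 1.29 RPKM. Hist4h4, the single gene of its cluster on chromosome 6, had 5.44 ± 1.41 and 5.52 ± 1.48 RPKM (SD, n = 3 throughout). No test was made on sums, since the genes were chosen with earlier results known.

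**Figure D3:**
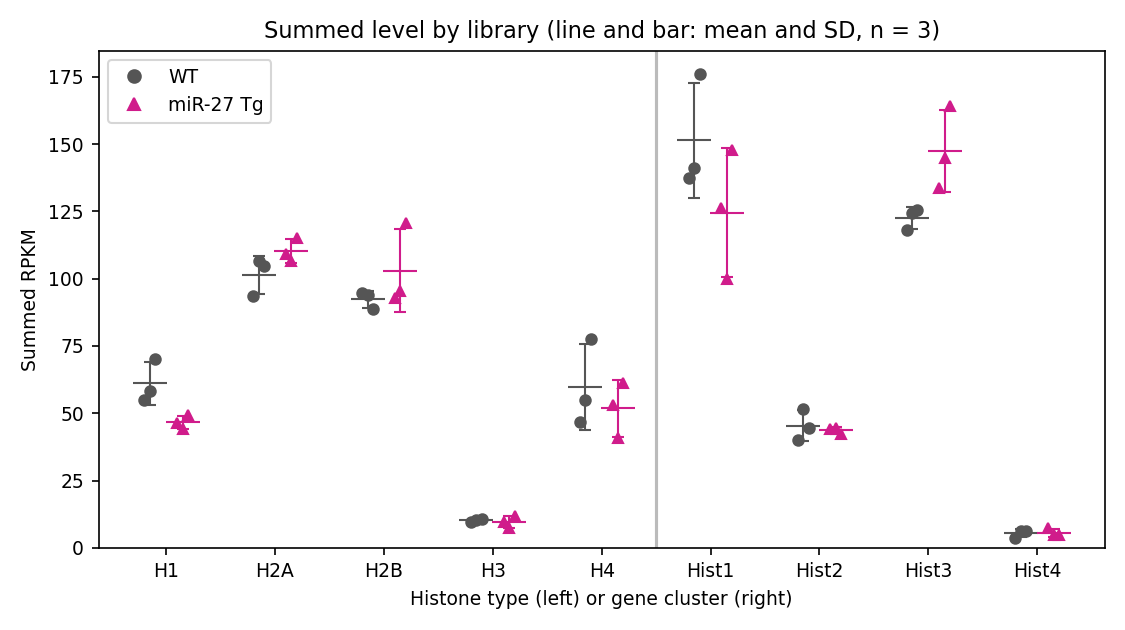
Summed RPKM on the y axis for each histone type (left) and each gene cluster (right); grey circles are WT libraries, magenta triangles are miR-27 Tg libraries, and the line and bar give mean and SD of 3 libraries. The groups separate for H1, where miR-27 Tg is lower, and for Hist3, where it is higher, and overlap elsewhere, with H2A libraries within a narrow band.

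Linker histone H1 was represented by 6 genes, of which 5 were tested. All 5 had a log2 fold change below 0, with a median of -0.33, except that Hist1h1a turned to 0.03 under quantile normalisation and in some fits without 1 library. In 3 of them the groups did not overlap and miR-27 Tg was lower (11.6% of all genes tested), and 1 of these 3, Hist1h1b, had at most 4 reads a library. Hist1h1c (NM_015786, chromosome 13 from 23738807 to 23739531, mm10, plus strand), which encodes H1.2, had 43.1, 42.6 and 60.3 RPKM in WT against 37.8, 37.4 and 38.6 in miR-27 Tg. The miR-27 Tg libraries were all below WT, and WT replicate 3 stood apart above the other 2. Its log2 fold change was -0.33 (SE 0.15, adjusted p = 0.417 by limma), and without WT replicate 3 it was -0.17. Hist1h1e, which encodes H1.4, had 6.10, 6.20 and 5.11 RPKM in WT against 3.37, 4.10 and 4.47 in miR-27 Tg, a log2 fold change of -0.45 (SE 0.20, adjusted p = 0.393 by limma). Its groups did not overlap either. Hist1h1a, which encodes H1.1, had 2.88, 2.74 and 1.79 RPKM in WT against 2.83, 1.17 and 3.52 in miR-27 Tg, with groups that overlap fully. Hist1h1b had 4 reads in each WT library and 3, 2 and 2 in miR-27 Tg, so that its separation rests on single reads. It reached the filter through WT alone, at 1.28 RPKM against 0.821 in miR-27 Tg, so its direction is a description.

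Among H2A genes, 7 of 19 were tested. Hist3h2a (NM_178218, chromosome 11 from 58954685 to 58955192, mm10, plus strand) was the highest histone gene of all, with 73.0, 84.1 and 82.0 RPKM in WT against 92.0, 95.5 and 99.5 in miR-27 Tg. The miR-27 Tg libraries were all above WT, with 155 to 177 reads a library. Its log2 fold change was 0.26 (SE 0.10, unadjusted p = 0.0288, adjusted p = 0.305 by limma). Over the 6 libraries its pattern was most like those of Hist1h3e (Pearson r of log2 levels 0.89), Hist1h2ac (0.76) and Hist2h2bb (0.71). This is a description from libraries that share depth and group. Hist1h3e and Hist1h2ac had 1 to 4 reads a library, and Hist1h3e reached the filter through miR-27 Tg alone. Hist2h2ac had 7.16, 9.84 and 10.8 RPKM in WT against 6.78, 4.37 and 6.87 in miR-27 Tg, lower in all miR-27 Tg libraries at a log2 fold change of -0.56 (SE 0.24, adjusted p = 0.372 by limma). Hist2h2ab had 3, 5 and 4 reads in WT against 3, 1 and 0 in miR-27 Tg (log2 fold change -0.98, adjusted p = 0.351 by limma). Its groups overlap. Hist1h2ak, next by level, had 4.91, 1.91 and 1.99 RPKM in WT against 1.97, 0.545 and 1.09 in miR-27 Tg. Hist2h2aa1 and Hist2h2aa2, near-identical copies, stayed under the filter with 3 and 6 reads in all. Their rows overlap in the deposited coordinates, so the 3 reads can be among the 6.

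The H2B genes held the most reads, 1834 over the 6 libraries, and 10 of 19 were tested. Hist3h2ba (NM_030082, chromosome 11 from 58948911 to 58949372, mm10, plus strand) had 42.0, 34.9 and 38.2 RPKM in WT against 41.2, 47.4 and 63.3 in miR-27 Tg. WT replicate 1 lay within the miR-27 Tg range, and the log2 fold change was 0.37 (SE 0.17, adjusted p = 0.412 by limma). Hist2h2be, with the longest counted transcript of the H2B genes at 2664 bases, had 14.3, 16.5 and 15.1 RPKM in WT against 10.8, 17.9 and 14.6 in miR-27 Tg, with 110 to 173 reads a library and groups that overlap. Hist1h2bc had 14.4, 9.83 and 7.70 RPKM in WT against 15.2, 11.6 and 16.8 in miR-27 Tg. Hist2h2bb had 8.25, 15.6 and 7.58 RPKM in WT against 13.4, 13.6 and 14.2 in miR-27 Tg. Both overlap between groups, at log2 fold changes of 0.44 (adjusted p = 0.528 by limma) and 0.43 (adjusted p = 0.567 by limma).

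The largest log2 fold changes among histone genes were those of low H2B genes. Hist3h2bb-ps had 3.08, 5.49 and 5.16 RPKM in WT against 0.567, 1.88 and 1.25 in miR-27 Tg, from 6, 10 and 9 reads against 1, 3 and 2. Its log2 fold change was -1.33 (SE 0.31, unadjusted p = 0.00281, adjusted p = 0.112 by limma), and GENCODE annotates it as a processed pseudogene. Hist1h2be had 7, 3 and 8 reads in WT against 2, 0 and 1 in miR-27 Tg (log2 fold change -1.46, SE 0.40, adjusted p = 0.160 by limma). These are the reads of its row of 442 bases alone. That row reached the filter through WT alone, at 3.43 RPKM against 0.615 in miR-27 Tg, so its difference is a description. The longest row had 16, 10 and 14 reads in WT against 19, 5 and 9 in miR-27 Tg, which overlap, and gave a log2 fold change of -0.13 (adjusted p = 0.923 by limma). Hist1h2bg had 5, 11 and 4 reads in WT against 2, 0 and 3 in miR-27 Tg (log2 fold change -1.25, SE 0.46, adjusted p = 0.297 by limma). In the rows used for these 3 genes every miR-27 Tg library was below every WT library (11.6% of all genes tested), on at most 11 reads a library.

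H3 genes gave the fewest reads: 3 of 12 were tested and all 12 had 116 reads over the 6 libraries. Hist1h3a had 4.29, 4.59 and 4.26 RPKM in WT against 4.74, 0.582 and 4.07 in miR-27 Tg, with miR-27 Tg replicate 2 alone apart on 1 read. Hist1h3e had 1, 2 and 1 reads in WT against 3, 2 and 4 in miR-27 Tg (log2 fold change 0.70, SE 0.29, adjusted p = 0.366 by limma). It reached the filter through miR-27 Tg alone, at 0.720 RPKM in WT against 1.80, so its difference is a description. Hist1h3c had 1, 3 and 2 reads in WT against 0, 3 and 2 in miR-27 Tg. Of the Hist2 genes of this type, Hist2h3b had 4 reads in all in WT against 6 in miR-27 Tg. Hist2h3c1 and Hist2h3c2 had 1 read each, on overlapping rows that can share it.

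H4 genes encode largely the same protein, and 9 of 13 were tested, with a median log2 fold change of 0.02. Hist1h4i (NM_175656, chromosome 13 from 22040960 to 22041362, mm10, minus strand) led with 14.9, 17.2 and 30.5 RPKM in WT against 12.5, 12.3 and 13.1 in miR-27 Tg. All miR-27 Tg libraries were below WT, and WT replicate 3 stood far above the other WT libraries. Its log2 fold change was -0.61 (SE 0.25, unadjusted p = 0.0410, adjusted p = 0.351 by limma), and -0.32 without WT replicate 3. Hist1h4d had 5.21, 12.5 and 5.09 RPKM in WT against 6.48, 6.36 and 10.3 in miR-27 Tg. Hist1h4b had 5.85, 7.96 and 9.50 RPKM in WT against 7.64, 2.60 and 9.75 in miR-27 Tg. Hist2h4 had 6.24, 5.34 and 6.97 RPKM in WT against 8.27, 7.62 and 5.34 in miR-27 Tg. Those 3 genes overlap between groups, as does Hist4h4, with 3.82, 6.41 and 6.09 RPKM in WT against 7.23, 4.66 and 4.66 in miR-27 Tg.

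What the better detected genes share was then read from their annotation. GENCODE continues the transcript model by 100 bases or more past the stem-loop in 23 histone genes. Of these, 16 passed the filter, and their median was 2.02 RPKM. In 12 of the 23 models the last 50 bases hold AATAAA, the signal for a poly(A) tail, or its common variant ATTAAA. In the other 23 genes with a stem-loop the model ends within 100 bases of it: 8 passed the filter, the median was 0.443 RPKM, and 1 model holds the signal. The 4 highest genes, Hist3h2a, Hist3h2ba, Hist1h1c and Hist1h4i, all have a longer model, which runs on for 1643, 169, 840 and 330 bases after the stem-loop, and all 4 hold the signal. Of the next 3, Hist2h2be, Hist1h2bc and Hist2h2bb, none had a match to the stem-loop in its model. This relation is across genes, carries no test, and its cause was not tested.

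**Figure D4:**
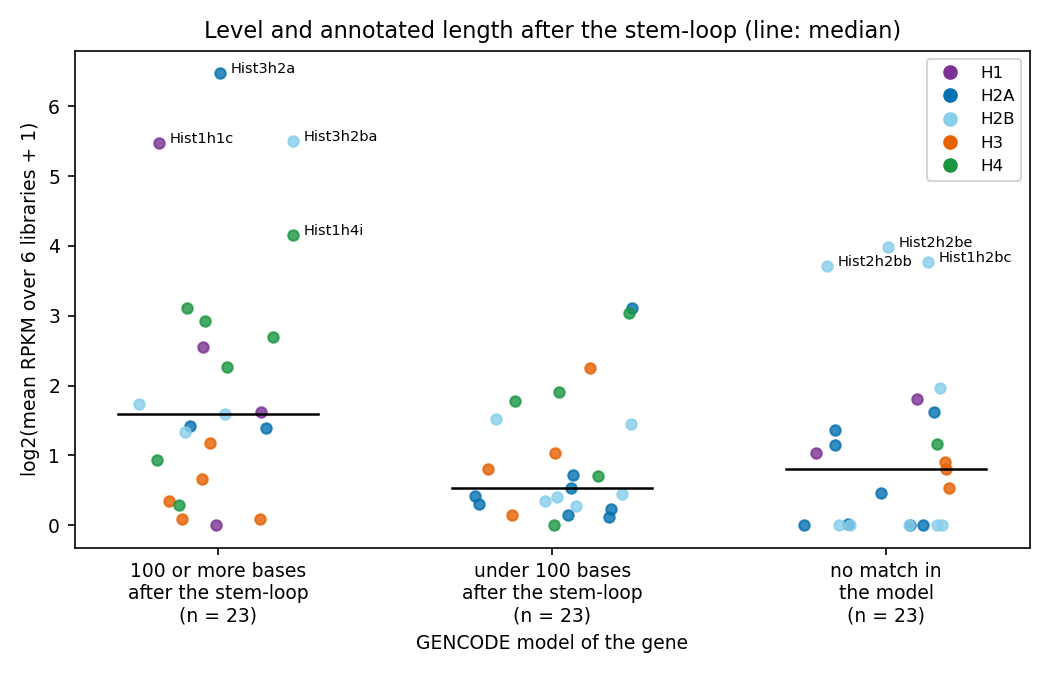
Mean level of each of the 69 genes, as log2 of the mean RPKM plus 1 on the y axis, by how far its GENCODE model runs past the stem-loop; the black line is the median of each group of 23 and colours mark the histone type. The medians are 2.02 RPKM for longer models, 0.443 for models that end within 100 bases and 0.750 where no stem-loop was found.

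The table lists several rows for 5 of the genes, and in 2 of them, Hist1h2bc and Hist1h2be, the rows that were counted separate a short message from a longer one. The others were Hist1h2bp, with at most 2 reads in a library, and Hist1h2bq and Hist1h2br, which were at 0. Hist1h2bc is listed with a row of 466 bases and with a spliced form that is 258 bases longer. Whether the spliced form contains the whole short row was not examined. Values of the added part are differences between the 2 rows and take this as given. The short row had 38 reads in WT against 41 in miR-27 Tg, and the added part, although shorter, had 55 and 72. Per length the added part was at 15.4 to 20.3 RPKM in WT against 20.3 to 32.6 in miR-27 Tg, against 3.42 to 11.2 and 6.85 to 9.58 for the short row. Read in this way, most reads of Hist1h2bc lay in the part that, of these 2 rows, only the spliced form contains. Hist1h2be is listed with a row of 442 bases and a form that is 2060 bases longer, read in the same way. The short row had 18 reads in WT against 3 in miR-27 Tg, while the added part had 22 and 30. The size of its difference between groups thus depends on which row stands for the gene.

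H2A and H2B genes of these clusters often start back to back and share the DNA between their starts. By the coordinates of the rows used, 11 such pairs among the 69 genes lay within 500 bases. Between their starts were 172 to 305 bases (median 210). RefSeq places Hist1h2ao on the other strand and Hist1h2ap elsewhere, both listed with 2 genomic copies. Pairs of such genes can therefore be missing here. The H2A gene was the higher one in 5 pairs and the H2B gene in 5, and both were at 0 in the last, Hist1h2aa and Hist1h2ba. The 3 pairs with the highest levels are shown, because they hold the pairs' best detected genes. The DNA between the starts, from RefSeq (GRCm38.p6), is given 5′ to 3′ on the plus strand. Capitals mark TATAAA (a form of the TATA box), the box named CCAAT for its letters, and the octamer known from H2B promoters, ATTTGCAT. Each was searched on both strands, so a motif on the minus strand appears as its reverse complement.
Hist3h2bb-ps (left) and Hist3h2a (right), chr11:58954513-58954684: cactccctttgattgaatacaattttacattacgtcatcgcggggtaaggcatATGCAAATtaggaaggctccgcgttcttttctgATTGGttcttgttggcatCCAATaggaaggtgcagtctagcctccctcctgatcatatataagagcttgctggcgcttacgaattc
Hist1h2ac (left) and Hist1h2bc (right), chr13:23683960-23684198: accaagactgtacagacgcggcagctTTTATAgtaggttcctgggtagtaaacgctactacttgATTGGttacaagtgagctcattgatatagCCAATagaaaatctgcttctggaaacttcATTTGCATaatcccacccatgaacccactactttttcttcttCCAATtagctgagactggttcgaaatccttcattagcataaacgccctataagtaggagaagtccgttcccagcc
Hist2h2ac (left) and Hist2h2be (right), chr3:96220881-96221071: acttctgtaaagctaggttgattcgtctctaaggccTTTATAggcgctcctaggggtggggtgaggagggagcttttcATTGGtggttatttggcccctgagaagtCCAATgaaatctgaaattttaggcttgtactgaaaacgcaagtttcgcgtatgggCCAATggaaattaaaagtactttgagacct
From the first stretch Hist3h2a was at a mean of 87.7 RPKM and its partner Hist3h2bb-ps at 2.91, with 994 and 31 reads. Their groups differed in opposite directions, since all miR-27 Tg libraries were above WT for Hist3h2a and below WT for Hist3h2bb-ps. Neither passed the adjusted threshold, and the difference between their changes was not tested. From the second, Hist1h2bc was at 12.6 RPKM and Hist1h2ac at 1.68. From the third, Hist2h2be was at 14.9 RPKM and Hist2h2ac at 7.64, the closest of the 3 pairs. The promoter of Hist2h2ac also holds the octamer, just past the right end of the third stretch, within the row of Hist2h2be.

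**Figure D5:**
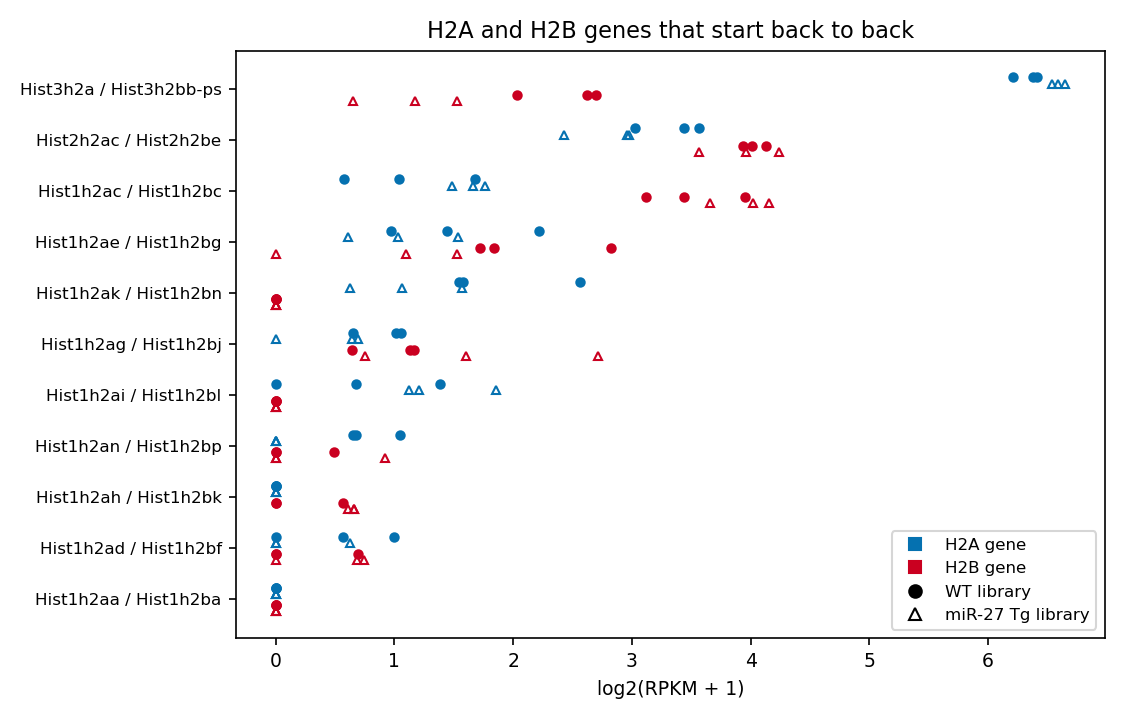
Level of both genes of the 11 back-to-back pairs as log2(RPKM + 1) on the x axis, with H2A genes in blue and H2B genes in red; filled circles are WT libraries and open triangles miR-27 Tg libraries. Hist3h2a exceeds its partner in every library, Hist1h2bc and Hist2h2be exceed theirs, and the lower pairs lie near 0.

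The same motifs were counted in RefSeq promoters, from 250 bases before to 50 bases after the start, which matched 62 of the 69 genes. A match is a description of letters, not of a bound site. CCAAT was present in 53 of them (85.5%), against 37.4% of all 32851 promoters of that length. By type it was in all 6 H1, 18 H2A, 16 H2B and 10 H3 promoters and in 3 of 12 H4 promoters. TATAAA was in 56.5% against 13.6% of all promoters. The octamer was in 22.6% against 1.74%, in 7 of 18 H2A and 7 of 16 H2B promoters and in 0 of the H1, H3 and H4 promoters. Neighbouring H2A and H2B promoters overlap, so these are not independent counts.

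The sequence of these genes limits what the values can say. A median of 58.9% of the 50-base words of a histone gene recur in another of the 69, and the sources used here do not give the handling of reads that map to several places. The 9 genes that the table lists with 2 genomic copies had a median of 93.7% and 13 reads in all, and 0 of them passed the filter. Of the genes with under 10% shared words, 7 of 9 passed the filter, Hist3h2a (9.15%), Hist2h4 (4.86%), Hist4h4 and Hist2h2be among them. Values of genes in repeated families, most of Hist1, are therefore uncertain.

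Reads were counted on both strands, so a gene and an overlapping one cannot be told apart. Of 65 genes that could be examined, 41 overlapped no exon of another annotated gene and 23 shared over 10% of their span. Hist3h2a lies wholly within exons of Trim17 and Gm44313 in GENCODE. Trim17, a ubiquitin ligase gene, was at 1.98 to 3.14 RPKM in its own row, far below Hist3h2a. Hist2h2bb lies wholly within Gm20628 and Gm42743, and 66.4% of Hist1h4b within 4930558J22Rik, so those values may include reads of the other transcripts.

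Genes that make, place and replace histones were read beside the clusters, each list with its count in the same model. Of 19 genes of histone message 3′ end processing, all tested, 0 passed an adjusted p of 0.05 by limma, and 0 reached an unadjusted p under 0.05, with a median log2 fold change of 0.04, where 1.03% of all genes tested passed. Slbp, the stem-loop binding protein, was at 170 ± 1.34 RPKM in WT against 165 ± 8.46 in miR-27 Tg (SD, n = 3), and Npat, the coactivator of histone loci, at 49.3 ± 3.35 and 47.4 ± 1.06. The highest of this list were Snrpb (835 RPKM over the 6 libraries) and Snrpd3 (798), Sm proteins that the spliceosome also uses, and Srrt (602). Of 13 replacement variants 9 were tested and 0 passed. H2afz (H2A.Z) alone had an unadjusted p under 0.05 by limma and was lower in miR-27 Tg (8.43% of all genes tested). It was at 170 ± 9.55 RPKM in WT against 142 ± 6.90 in miR-27 Tg (log2 fold change -0.26, adjusted p = 0.265 by limma). H3f3b, which encodes H3.3, was at 1045 ± 172 and 919 ± 137 RPKM, H2afy (macroH2A) at 896 ± 65.8 and 1011 ± 50.7, and H3f3a at 209 ± 19.8 and 231 ± 31.8.

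Summed over a type, the replacement variants stood above the clustered genes, which rests on a few of them. H1fx (0.588 RPKM) and H2afy2 (0.203) were low, and H2afb1 and Hils1, listed at 0 in all libraries, are not in these sums. H3f3a and H3f3b together were 98.6 to 175 times the sum of the 12 clustered H3 genes, depending on the library. The 6 H2A variants were 13.5 to 14.9 times the 19 clustered H2A genes, and H1f0 and H1fx 1.96 to 3.41 times the 6 clustered H1 genes. A poly(A) step and the handling of reads in repeated sequence are not given in the sources used here. These ratios are therefore of counted levels, not of messages in the cells. Of 22 histone chaperones 0 passed by limma, with 2 higher and 2 lower at an unadjusted p under 0.05 (4.59% and 8.43% of all genes tested) and a median log2 fold change of 0.00. The highest were Nap1l4 (624 RPKM), Ssrp1 (546) and Atrx (385).

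Genes of S phase and mitosis show whether the cells of both groups carried the messages of dividing cells. All 30 were tested, 0 passed by limma, 2 were higher and 2 lower at an unadjusted p under 0.05 (4.59% and 8.43% of all genes tested), and the median log2 fold change was -0.048. They summed to 2840 to 3058 RPKM in WT against 2872 to 2919 in miR-27 Tg, which overlap. The highest were Pcna, the sliding clamp of DNA replication (461 RPKM), Mcm6 (309) and Mcm4 (229), each well above the highest clustered histone gene. Messages of replication were thus counted in both groups, while most clustered histone genes gave few reads.

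Markers of other cells that a sort could carry along were summed in each group. The 6 Treg cell markers summed to 8935 to 9851 RPKM in WT against 8171 to 8453 in miR-27 Tg, without overlap. Of them 0 passed an adjusted p of 0.05 by limma, the threshold for each list here, which 1.03% of all genes tested passed. At an unadjusted p under 0.05 by limma, 0 were higher and 2 lower, Ctla4 and Ikzf2 (4.59% and 8.43% of all genes tested). The log2 fold change was above 0 in 3 of the 6 and below 0 in 3. The 16 myeloid markers summed to 374 to 707 RPKM in WT against 544 to 1678 in miR-27 Tg, and of 14 tested 1 (Itgam) passed by limma and was higher in miR-27 Tg. At an unadjusted p under 0.05, 10 of the 14 were higher and 0 lower (4.59% and 8.43% of all genes tested), 13 had a log2 fold change above 0, and the median was 1.10. B cell markers summed to 145 to 171 and 113 to 166 RPKM, with 0 of 9 tested past the threshold. Markers of CD8 T and NK cells summed to 227 to 292 and 191 to 312 RPKM, and 2 of 9 tested (Xcl1 and Nkg7) passed and were lower in miR-27 Tg. The rest of that list was mixed, with 5 of the 9 above 0, Cd8b1 among them (log2 fold change 0.72, adjusted p = 0.258 by limma), and a median of 0.07. Erythroid markers summed to 18.2 to 77.5 and 10.2 to 56.0 RPKM, with 0 of 6 tested past the threshold. No marker was at 0 in all libraries, and the part of these cells in the histone values was not tested.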

How the data were processed

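Polyadenylation selection, read length and alignment settings are not given in the sources used here. Reads were processed with STAR 2.2.0c and HOMER against mm10 (GRCm38), per the submitters' processing notes, and TruSeq libraries were made, per the labels' protocols. The deposited values are RPKM over exons of 34711 RefSeq transcripts of mm10, counted on both strands and scaled to 10000000 reads a library, per the file headers. Because both strands were counted and a read in an exon shared by several transcripts counts for each, overlapping genes share reads.

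The highest row by mean RPKM was kept for each of 24453 symbols. Low values were whole multiples of the value of 1 read (100% within 0.1 read), which gave the depth, and the reads of each histone gene came from RPKM and length, whole within 0.005. Genes whose mean RPKM reached 1 (13621) were tested as log2(RPKM + 1) with limma 3.58.1 (R 4.3.3, intensity trend, two-sided, Benjamini-Hochberg over all of them, threshold 0.05), a pipeline tested on simulated data. No count model was used, and fold changes on this scale understate changes of low genes. With 3 libraries against 3 an exact permutation test of a single gene cannot go below p = 0.1. Alternatives were pseudocounts of 0.1 and 5, no filter, no trend, a replicate block, quantile normalisation, the longest row per symbol and leaving out each library. Stem-loops, overlaps and 50-base words came from GENCODE M21 transcripts, promoters from RefSeq (GRCm38.p6). The histone genes, the gene lists and the naming rule were chosen with earlier results of these data known. The rule names the 3 highest genes of each type, all with an unadjusted p under 0.05, all of Hist2, Hist3 and Hist4, the 2 genes at the filter, and the 3 highest of each list. Hist1h1b and the genes at 0 or in pairs were added beside it for what they show.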

Additional observations from a re-analysis of the deposited data

How the results depend on the processing

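No histone gene passed an adjusted p of 0.05 by limma under any alternative run except the replicate block, where 1 did: Hist3h2bb-ps, with an unchanged log2 fold change of -1.33 (SE 0.24, adjusted p = 0.0479; 0.0827 to 0.279 under the others). Equal replicate numbers alone do not show a pairing. The deviations of same-numbered libraries correlated at 0.37, 0.097 and 0.037, and those of differently numbered libraries at -0.22 to 0.15. Whether libraries of the groups were paired was not tested. Genes of the 4 pathway lists stayed at 0 past the threshold in every fit. Over all genes, 140 calls became 48 without the filter, 276 with the replicate block and 4 to 56 when 1 library was left out, with 11 without WT replicate 1, 48 without WT replicate 2, 4 without WT replicate 3, and 27, 56 and 5 without miR-27 Tg replicates 1, 2 and 3. Fewer libraries and more genes tested lower such counts by construction. Of 22 named genes 15 had 1 sign in all 13 alternatives. The other 7 changed sign in some fit, with adjusted p of 0.811 to 0.997 by limma in those fits. They are Hist2h2be (without miR-27 Tg replicate 1), Hist1h4b and Hist1h3a (without miR-27 Tg replicate 2), Hist1h4d (without WT replicate 1 or 3 or miR-27 Tg replicate 3), Hist4h4 (without replicate 1 of either group), Hist1h3c (without WT replicate 2 or miR-27 Tg replicate 1) and Hist1h1a (without WT replicate 1 or 2 or miR-27 Tg replicate 2, and with quantile normalisation). The summed level of all histone genes moved by less than the spread between libraries in every alternative, from -0.12 without Hist3h2a to 0.045 without WT replicate 3 on the log2 scale, against -0.016. Depth limits most genes here, with under 20 reads a library for 26 of the 34 tested.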
